A study of Mus musculus with 27 samples.

Results

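P2 was the sorted fraction of Prx1-tdTomato cells that lacked CD45, CD105 and CD200, and here the P2 cells of skeletal muscle were compared with the P2 cells of bone marrow. The comparison took 6 of the 27 libraries of the series, 3 of muscle P2 and 3 of marrow P2, which were chosen by their labels and not by any measured value. All animals were Prx1-CreER/Ai14/Rag1 mice of both sexes, aged 8 to 12 weeks. In these mice the Prx1 promoter drives a Cre that tamoxifen activates, Cre then switches on the Ai14 tdTomato reporter permanently, and every animal also carried the Rag1 mutant allele. Hindlimb tissue was harvested 3 days after the last tamoxifen dose. Muscle around the femur was minced and digested with collagenase P and DNase I, whereas marrow was flushed from femur and tibia without enzyme, so tissue and way of isolation cannot be told apart. The study describes as many mice as libraries in each group, but not which animal gave which library or whether an animal gave several, so p-values treat the libraries as independent. Full-length cDNA was amplified with the SMART-Seq v4 kit and made into Nextera XT libraries.

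Prrx1, the gene behind the Prx1 promoter, encodes a homeobox factor of the limb bud mesenchyme, and its Cre labels connective tissue cells of the limb, among them cells that later form bone, cartilage and fibrous tissue. Skeletal muscle is built of myofibres, large cells with many nuclei whose RNA is dominated by transcripts of the contractile apparatus and of glycolysis, with fibroblast-like fibro-adipogenic progenitors lying between them. Bone marrow holds stromal cells among a great excess of blood-forming cells. Maturing red cell precursors lose CD45 from their surface while they fill with globin transcripts, and neutrophil precursors carry CD45 together with the transcripts of their granule proteins.

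The deposited table lists normalized counts, read counts that the authors scaled between libraries, and all levels below are in that unit. They were not divided by transcript length, so levels are compared between libraries and not between genes. The sum over all genes was 18148837 to 18837251 in the muscle P2 libraries and 17678663 to 26232142 in the marrow P2 libraries, and marrow replicate 2 had the largest sum. A value above 0 was listed for 14864 to 16145 genes in muscle and for 18543 to 21676 in marrow. Pearson's r across genes was 0.834 to 0.851 between muscle replicates, 0.759 to 0.832 between marrow replicates and 0.305 to 0.428 between a muscle and a marrow library.

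The genes behind the sort were examined first. Prrx1 was at 1146, 878 and 2371 in muscle and 90.8, 69 and 170.3 in marrow, a log2 fold change of 3.69 (s.e. 0.55, adjusted p = 0.00105), and the tissues did not overlap. The entry listed as a transgene, whose construct the table does not name, was at 26650.5, 27124 and 15527 in muscle and 1296, 1234 and 1181 in marrow, also without overlap (log2 fold change 4.18, s.e. 0.31, adjusted p = 5.93e-05). Both were therefore present in all 6 libraries and higher in muscle. Ptprc, the gene of the leukocyte antigen CD45 against which the cells were sorted, was at 118, 25.6 and 100 in muscle and 312, 690.2 and 829 in marrow. It was lower in muscle by a log2 fold change of -3.04 (s.e. 0.75, adjusted p = 0.0107), a call that was lost without marrow replicate 3 (adjusted p = 0.0566). Eng, which encodes CD105, was at 569, 364 and 146 in muscle and 97.4, 13.1 and 173 in marrow, and did not pass the test (adjusted p = 0.0938). Cd200 was at 10.3, 1107 and 69.5 in muscle and 72.6, 21.1 and 56.3 in marrow and did not pass either (adjusted p = 0.59). The groups overlapped in both genes, and muscle replicate 2 stood apart with the highest Cd200 value.

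Muscle P2 and marrow P2 differed in close to every second gene that could be tested. Of 15661 genes that reached 10 in 3 or more of the 6 libraries, 3173 (20.3%) were higher in muscle and 3994 (25.5%) were lower. The test was limma on log2(normalized count + 1), and a gene was called at an adjusted p under 0.05 with a log2 fold change beyond 1.5 either way. Together 7167 genes (45.8%) were called, and in 9269 (59.2%) the libraries of the tissues did not overlap. Counts of called list members are to be read beside the shares of 20.3% higher and 25.5% lower. Fold changes are on this log2 scale with a pseudocount of 1, which understates the change of low genes. The genes lower in muscle were more often low overall: 1344 of them had a mean under 50 over the 6 libraries, against 80 of those higher in muscle. Among the 2611 genes with a mean of at least 1000 the order was the other way round, with 1122 higher and 636 lower in muscle. In 1515 genes all 3 marrow libraries and no muscle library reached 10, and 1491 of these were called lower. In 184 genes the reverse held, and 178 of these were called higher. Such genes are said below to have passed through 1 tissue alone, and their calls followed in part from the filter. Genes in which only some libraries of the other tissue also reached 10 are not among them, so these counts understate the part of the filter. Every list member that passed through 1 tissue alone was called higher in that tissue, so such members are set apart below where they make up much of a count. In sorted bulk samples, fewer cells of a type and less RNA per cell cannot be told apart. Over the 15661 genes the log2 fold change had a median of -0.39, which other scalings of the libraries moved to between -0.72 and -0.18.

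**Figure D1:**
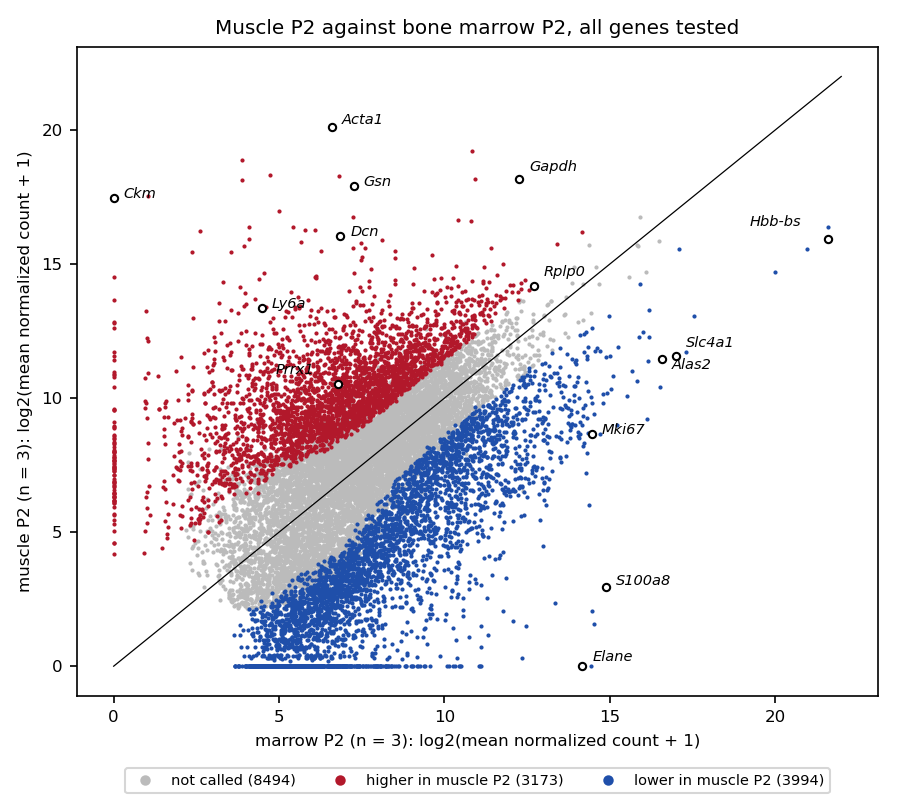
Mean normalized count of each of the 15661 genes tested in marrow P2 (horizontal) and muscle P2 (vertical), both as log2(mean + 1) of 3 libraries, with the line of equal level. The 3173 genes higher in muscle (red) reach far above the line at Acta1, Ckm and Gsn, and the 3994 genes lower in muscle (blue) include Hbb-bs, Slc4a1 and Mki67 and a row at 0 in muscle with Elane.

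The 12 largest log2 fold changes in favour of muscle belonged to Myl1, Acta1, Tnnc2, Tnnt3, Pvalb, Ckm, Tnni2, Cox6a2, Tcap, Cox8b, Myoz1 and Trim54. All but Trim54, which encodes a muscle RING finger protein, are members of the myofibre lists, most of them parts of the sarcomere, the contractile unit of the fibre. All 13 thin filament genes and all 11 thick filament genes were higher in muscle P2, with median log2 fold changes of 6.16 and 8.40 where the background of higher genes was 20.3%. Acta1, skeletal muscle actin, was at 1030835, 1275861 and 1125386 in muscle and 113, 52.8 and 124 in marrow. Every muscle library lay far above every marrow library, at a log2 fold change of 13.61 (s.e. 0.37, adjusted p = 7.53e-07). Tpm1, the tropomyosin that lies along actin, was at 246621, 311645 and 330468 in muscle and 1518, 2583 and 1719 in marrow (log2 fold change 7.28, s.e. 0.33, adjusted p = 1.25e-05). The fast troponins, the calcium switch of fast fibres, were almost absent from marrow P2. Tnnt3 was at 428844, 212460 and 234649 in muscle and 25.1, 15.9 and 0 in marrow, and Tnni2 was at 164669, 203575 and 200838 in muscle and 3.20, 0 and 0 in marrow. Their log2 fold changes of 15.15 and 16.84 depend on the pseudocount, since marrow libraries were listed at 0. The slow troponins were also higher in muscle, with Tnnt1 at 2421, 785 and 2166 in muscle and 98.7, 53 and 152 in marrow (log2 fold change 4.10, s.e. 0.60, adjusted p = 0.000979) and a log2 fold change of 4.17 for Tnni1.

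Among the myosins of the thick filament the fast isoforms had larger fold changes than the slow heavy chain. Myh4, the heavy chain of the fastest fibres, was at 74646, 71598 and 88995 in muscle and 54.2, 22.8 and 126 in marrow, a log2 fold change of 10.47 (s.e. 0.55, adjusted p = 2.21e-05). Myh1, another fast heavy chain, varied more between the muscle libraries, with 59469.6, 5047 and 4437 against 31.9, 16.9 and 155 in marrow. Myl1, the light chain of fast fibres, was at 267083, 373078 and 337211 in muscle and 24.3, 23.8 and 29 in marrow (log2 fold change 13.56, s.e. 0.28, adjusted p = 1.35e-07). The slow heavy chain Myh7 was at 715, 611 and 769 in muscle and 236, 53.9 and 370.3 in marrow. Its log2 fold change of 2.04 (s.e. 0.70, adjusted p = 0.0406) was the smallest in the list, and the call was lost under 12 of the 17 alternative settings. The heavy chains resemble each other in sequence, and how reads were shared between them is not given in the sources used here. Mybpc2, fast myosin-binding protein C, was at 49476, 55295 and 51431 in muscle and 27.1, 0 and 16.1 in marrow.

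Of 19 genes of the Z-disc, the M-line and titin, 18 were higher in muscle P2 (median log2 fold change 7.15, or 5.89 without the 2 genes listed at 0 in marrow). Des, the intermediate filament that ties myofibrils together, was at 55572, 69203 and 134168 in muscle and 70.4, 12.4 and 42.7 in marrow (log2 fold change 11.17, s.e. 0.62, adjusted p = 2.57e-05). Actn3, the alpha-actinin of fast fibres, was at 83128, 209208 and 97537 in muscle and 13.4, 6.29 and 72.5 in marrow (log2 fold change 12.56, s.e. 0.79, adjusted p = 3.74e-05). Ttn, the giant spring of the sarcomere, spread widely within both tissues, with 198508, 11846 and 99927 in muscle and 2128, 328 and 1614 in marrow, yet did not overlap (log2 fold change 5.89, s.e. 1.05, adjusted p = 0.00239). Pdlim3 was at 6373, 7025 and 8109 and Xirp2 at 2839, 3533 and 3798 in muscle, and both were listed at 0 in all 3 marrow libraries. The exception was Myom3, an M-line protein, at 17.1, 5.65 and 7.59 in muscle and 109, 18.7 and 193 in marrow, which did not pass the test (adjusted p = 0.069).

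Genes of excitation-contraction coupling, which turn a nerve impulse into calcium release, were higher in muscle in 18 of 19 tested cases (median log2 fold change 7.74, or 7.01 without 2 genes at 0 in marrow). Atp2a1, the calcium pump of fast fibres, was at 173476, 203026 and 593024 in muscle and 55.1, 63.3 and 214 in marrow (log2 fold change 11.55, s.e. 0.62, adjusted p = 2.41e-05). Pvalb, the calcium buffer of fast fibres, was at 71712, 77722 and 80449 in muscle against 5.84, 0 and 9.35 in marrow. Cacna1s, the voltage sensor, was at 8806, 5791 and 5394 in muscle and 75.4, 122 and 172 in marrow (log2 fold change 5.79, s.e. 0.41, adjusted p = 5.24e-05). Casq1, which stores calcium, was at 10573, 5799 and 8169 in muscle and 8.19, 19.3 and 54.1 in marrow (log2 fold change 8.51, s.e. 0.66, adjusted p = 6.93e-05). Chrna1, a subunit of the acetylcholine receptor, was at 110.3, 214 and 90.4 in muscle and 96.6, 90 and 242 in marrow, with overlapping groups, and did not pass the test (adjusted p = 0.993).

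The fuel supply of the fibre followed the same direction, with 18 of 19 genes higher in muscle and a median log2 fold change of 8.99, or 7.96 without the 3 genes listed at 0 in marrow. Ckm, muscle creatine kinase, was at 166300.5, 195979 and 188034 in muscle and was listed at 0 in every marrow P2 library. The muscle isoforms of cytochrome oxidase subunits Cox6a2 and Cox8b were likewise listed at 0 in marrow, with 20636, 27545 and 22165 and 12181, 14243 and 12687 in muscle. Pygm, which breaks down glycogen in muscle, was at 21136, 24509 and 21883 in muscle and 5.17, 18.2 and 36.5 in marrow (log2 fold change 10.42, s.e. 0.62, adjusted p = 3.34e-05). Slc2a4, the insulin-dependent glucose transporter GLUT4, was at 2209.6, 6716 and 3394 in muscle and 1765, 1953 and 941 in marrow and stayed under the fold threshold at a log2 fold change of 1.32 (adjusted p = 0.0462).

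Muscle transcripts made up a large part of the muscle P2 libraries. The thin filament list summed to 11.9% to 15.8% of all normalized counts in muscle and 0.0121% to 0.0182% in marrow. For the thick filament the shares were 2.87% to 3.20% and 0.00104% to 0.00573%, and for the Z-disc, M-line and titin list 2.74% to 3.0% and 0.00351% to 0.0208%. The groups did not overlap in any of these lists, which with 3 libraries against 3 gives an exact permutation p of 0.1, two-sided, the smallest possible. The muscle stem cell genes Pax7 and Myf5 stayed below the filter, with Pax7 listed at 0 in all muscle P2 libraries and at 30.1, 7.03 and 40.2 in marrow. Genes of later myogenic stages were present: Myod1 was at 1016, 1009 and 1066 in muscle and 41.6, 0 and 0 in marrow, and Myf6, the regulator most characteristic of mature fibres, was at 2519.7, 2753 and 3181 in muscle and 0, 2.75 and 18.8 in marrow (log2 fold change 9.38, s.e. 1.08, adjusted p = 0.000363). Of the 12 progenitor genes 7 were tested and 5 were higher in muscle, while Calcr and Heyl were not called. The other 5 stayed below the filter.

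**Figure D2:**
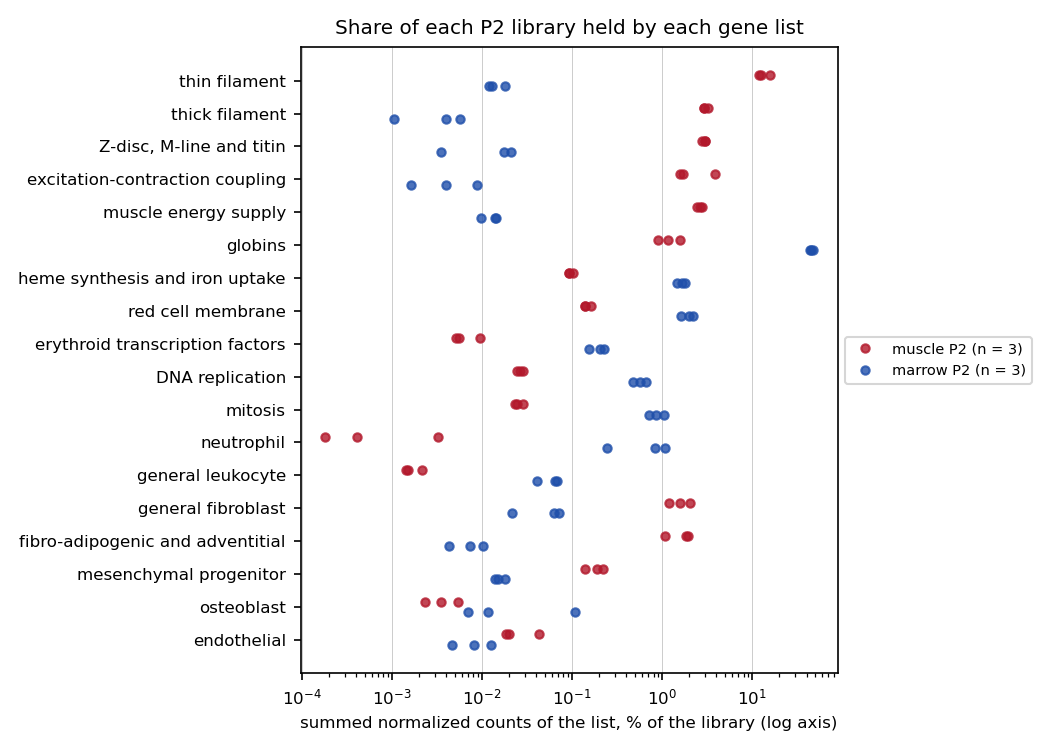
Share of each library's summed normalized counts held by 18 gene lists, on a logarithmic axis, with 1 point for each of 3 muscle P2 (red) and 3 marrow P2 (blue) libraries. The myofibre and fibroblast lists lie to the right in muscle, the globins reach 44.2% to 47.3% in marrow against 0.898% to 1.56% in muscle, and the endothelial points lie at 0.0182% to 0.0424% in muscle and 0.00464% to 0.0126% in marrow.

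The promoters of 3 of these genes are shown because all 3 are among the 12 largest log2 fold changes in favour of muscle and each holds the letters CAGCTG, an E-box of the kind that myogenic factors are known to bind. They are 250 bases upstream of the start site, written 5′ to 3′ on the gene's own strand, from RefSeq on GRCm38.p6. Acta1 lies on the minus strand with its promoter at chr8:123894776-123895025, Ckm on the plus strand at chr7:19410844-19411093 and Myl1 on the minus strand at chr1:66945057-66945306. Capitals mark CAGCTG, which reads the same on both strands.
Acta1: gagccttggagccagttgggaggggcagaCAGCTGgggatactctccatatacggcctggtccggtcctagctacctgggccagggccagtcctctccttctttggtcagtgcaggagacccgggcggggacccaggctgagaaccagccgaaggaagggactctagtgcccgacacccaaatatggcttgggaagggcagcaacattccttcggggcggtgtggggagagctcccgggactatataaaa
Ckm: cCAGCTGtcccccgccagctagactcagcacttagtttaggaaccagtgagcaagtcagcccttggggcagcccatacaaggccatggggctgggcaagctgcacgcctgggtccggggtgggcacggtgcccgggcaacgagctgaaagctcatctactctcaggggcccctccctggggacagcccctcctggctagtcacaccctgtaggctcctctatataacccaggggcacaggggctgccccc
Myl1: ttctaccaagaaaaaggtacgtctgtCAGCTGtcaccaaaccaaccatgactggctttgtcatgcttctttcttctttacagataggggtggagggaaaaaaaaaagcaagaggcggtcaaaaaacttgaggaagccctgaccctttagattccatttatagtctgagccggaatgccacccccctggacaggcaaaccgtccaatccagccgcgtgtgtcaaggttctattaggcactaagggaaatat
The letters stand at bases -221 to -216 in Acta1, -249 to -244 in Ckm and -224 to -219 in Myl1, counted from the start site. CAGCTG occurred in 3450 of the 27025 promoters of the same table (12.8%). A promoter entry was found for 58 of the 82 genes of the 5 myofibre lists, fewer than the 80% set as the limit, so no share is given for them. A match describes the letters only.

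Red cell transcripts showed the opposite pattern. All 4 adult globin genes, which encode the chains of haemoglobin, were lower in muscle P2 (median log2 fold change -5.33) against a background of 25.5%. Hbb-bs was at 79209, 64801 and 43955 in muscle and 2818895, 4163507 and 2647659 in marrow, a log2 fold change of -5.69 (s.e. 0.56, adjusted p = 0.000179). Hba-a2 was at 111889.7, 80416 and 63109.7 in muscle and 2755359, 4149695 and 2704515 in marrow (log2 fold change -5.24, s.e. 0.57, adjusted p = 0.000284). Each marrow library exceeded each muscle library, yet muscle P2 also held globin transcripts in all 3 libraries. The globins summed to 44.2% to 47.3% of the marrow libraries and 0.898% to 1.56% of the muscle libraries. Hba-a1 and Hba-a2 are near copies, so reads may have been split between them and their separate values are uncertain. Their promoters are identical over 297 of 297 bases at a shift of 3, but their transcript sequences were not compared. The embryonic globins Hba-x, Hbb-y and Hbb-bh1 stayed below the filter.

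Heme synthesis and iron uptake genes were lower in muscle in 14 of 16 tested cases (median log2 fold change -4.20). Alas2, which catalyses the rate-limiting step of heme synthesis in red cells, was at 3322, 2566 and 2639 in muscle and 85157, 131137 and 79395 in marrow (log2 fold change -5.09, s.e. 0.32, adjusted p = 3.74e-05). The transferrin receptor Tfrc, which brings in iron, was at 326, 711 and 497 in muscle and 19730.3, 21764 and 13092 in marrow (log2 fold change -5.19, s.e. 0.37, adjusted p = 5.40e-05). The form of the first enzyme used outside the red cell lineage, Alas1, was at 977, 837 and 1368 in muscle and 1119.9, 1220.5 and 571 in marrow, with overlap, and did not pass the test (adjusted p = 0.742). The other member without a call was Steap3.

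All 12 erythroid transcription factors were lower in muscle P2 (median log2 fold change -5.82). Gata1, the factor that directs red cell differentiation, was at 73.4, 160.4 and 79.9 in muscle and 5344, 6559.8 and 3734 in marrow (log2 fold change -5.68, s.e. 0.43, adjusted p = 6.33e-05). Nfe2 was at 124, 167 and 107 in muscle and 7655, 12628 and 5752 in marrow (log2 fold change -5.96, s.e. 0.39, adjusted p = 3.95e-05). Klf1, an activator of adult beta-globin, spread widely in muscle, with 0.726, 286 and 86.3 against 12506, 10178 and 4844 in marrow (log2 fold change -7.92, s.e. 1.60, adjusted p = 0.0043). The number called ranged from 10 to 12 over the alternatives, with Tal1 and Ldb1 among the calls that were lost.

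Of 18 red cell membrane genes, 16 were lower in muscle (median log2 fold change -4.91). Slc4a1, the anion exchanger band 3, was at 3138, 2763 and 3343 in muscle and 113673, 188988 and 90932 in marrow (log2 fold change -5.35, s.e. 0.35, adjusted p = 3.95e-05). Rhd, a blood group protein of the membrane, was at 409.7, 491 and 628 in muscle and 35635, 54767 and 24561 in marrow (log2 fold change -6.17, s.e. 0.36, adjusted p = 2.97e-05). Ank1, which anchors the membrane skeleton, had a smaller difference, at 1139.7, 1162 and 1353 in muscle and 3841, 5369.7 and 3211 in marrow (log2 fold change -1.73, s.e. 0.30, adjusted p = 0.00213), and was not called with all 27 libraries in the fit (adjusted p = 0.28). Tmod1, a cap of actin filaments in both red cells and sarcomeres, was at 4752, 5769 and 4530 in muscle and 5874, 7527 and 4779.6 in marrow, overlapped and was not called. All 15 other erythroid genes were lower in muscle as well (median -4.81), among them Car2, a carbonic anhydrase, at 3061, 3760.3 and 3249.7 in muscle and 145094, 231756 and 105663 in marrow (log2 fold change -5.51, s.e. 0.36, adjusted p = 3.95e-05). The erythropoietin receptor Epor was at 20.3, 23.9 and 104 in muscle and 5335, 7095 and 3696 in marrow (log2 fold change -7.09, s.e. 0.65, adjusted p = 0.000138). Marrow replicate 2, the library with the largest sum, had the highest marrow value in 17 of 18 membrane genes and 16 of 17 heme genes.

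The promoters of Hbb-bs and Alas2 are printed because both belong to the most abundant erythroid transcripts of marrow P2. The letters searched were AGATAA, of the kind that Gata1 is known to bind, and, separately, the box CCACACCC that Klf1 is known to bind in beta-globin promoters. Hbb-bs lies on the minus strand with its 250 bases at chr7:103827929-103828178, and Alas2 on the plus strand at chrX:150547167-150547416 (RefSeq, GRCm38.p6). Capitals mark the matches, of which the Alas2 match is AGATAA read on the opposite strand.
Hbb-bs: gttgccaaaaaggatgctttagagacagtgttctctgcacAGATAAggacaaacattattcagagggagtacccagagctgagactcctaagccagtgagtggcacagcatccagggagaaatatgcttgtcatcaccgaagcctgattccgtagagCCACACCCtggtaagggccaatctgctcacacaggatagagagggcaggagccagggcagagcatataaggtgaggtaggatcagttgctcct
Alas2: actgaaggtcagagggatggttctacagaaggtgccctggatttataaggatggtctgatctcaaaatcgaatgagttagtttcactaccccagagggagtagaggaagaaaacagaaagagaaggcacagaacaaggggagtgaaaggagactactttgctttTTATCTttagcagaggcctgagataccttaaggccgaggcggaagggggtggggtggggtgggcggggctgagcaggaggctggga
In Hbb-bs the letters AGATAA stand at -210 to -205 and CCACACCC at -93 to -86, and in Alas2 the match stands at -86 to -81. On either strand, AGATAA occurred in 10.3% and CCACACCC in 3.19% of the 27025 promoters. Only 48 of the 69 genes of the 5 erythroid lists had a promoter entry, so no share is given for them.

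Genes of proliferation were lower in muscle P2. All 30 DNA replication genes (median log2 fold change -5.23) and all 30 mitosis genes (median -5.60) passed the test, beside a background of 25.5%. Over the alternative settings tried the first count ranged from 25 to 30 and the second stayed at 30. Rrm2, which makes the building blocks of DNA, was at 255, 428 and 539 in muscle and 27959, 35046 and 17841 in marrow (log2 fold change -6.06, s.e. 0.39, adjusted p = 3.78e-05). Pcna, the sliding clamp of DNA polymerase, was at 454, 596 and 549 in muscle and 8154, 10317 and 5071 in marrow (log2 fold change -3.83, s.e. 0.34, adjusted p = 0.000126). Mki67, the antigen of cycling cells, was at 458, 505 and 239 in muscle and 28231, 22863 and 16912 in marrow (log2 fold change -5.86, s.e. 0.37, adjusted p = 3.78e-05). Top2a, which untangles chromosomes, was at 131, 327 and 128 in muscle and 15315, 12283 and 7975 in marrow (log2 fold change -6.01, s.e. 0.45, adjusted p = 6.26e-05). Ccne1, the cyclin that starts DNA replication, was close to absent from muscle, with 2.11, 1.35 and 2.01 against 2767, 2384 and 1532 in marrow (log2 fold change -9.59, s.e. 0.77, adjusted p = 8.09e-05). The mitosis list summed to 0.717% to 1.04% of the marrow libraries and 0.0230% to 0.0282% of the muscle libraries. Red cell and neutrophil precursors divide, and their transcripts were lower in muscle together with these lists, but their part in the difference was not tested.

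Inhibitors of the cell cycle and D cyclins were divided, with 5 of 16 higher and 6 lower in muscle. Over all genes the shares were 20.3% and 25.5%. Of these calls, 2 of the higher genes had passed the filter through muscle alone and 1 of the lower through marrow alone. Cdkn1a, which encodes the inhibitor p21, was at 3239, 1791 and 1670 in muscle and 232, 268 and 108 in marrow (log2 fold change 3.49, s.e. 0.48, adjusted p = 0.000713). Gas1 was at 434, 633 and 407 in muscle and 3.01, 53.3 and 9.64 in marrow (log2 fold change 5.19, s.e. 1.07, adjusted p = 0.00465). Of the genes lower in muscle, Cdkn2c, an inhibitor of the D cyclin kinases, was at 93.6, 126 and 110.2 in muscle and 1220.4, 1952 and 1178 in marrow (log2 fold change -3.68, s.e. 0.42, adjusted p = 0.000351). Ccnd3, a D cyclin, was at 1120, 2159.9 and 1327 in muscle and 10141, 15765 and 8030 in marrow (log2 fold change -2.88, s.e. 0.37, adjusted p = 0.000574). Ccnd1 and Ccnd2 did not pass the test.

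The Mki67 promoter holds the letters TTGGCGC, an E2F-type site, and is given as the example of this group. It lies on the minus strand at chr7:135716380-135716629 (RefSeq, GRCm38.p6), and capitals mark the match at -67 to -61.
Mki67: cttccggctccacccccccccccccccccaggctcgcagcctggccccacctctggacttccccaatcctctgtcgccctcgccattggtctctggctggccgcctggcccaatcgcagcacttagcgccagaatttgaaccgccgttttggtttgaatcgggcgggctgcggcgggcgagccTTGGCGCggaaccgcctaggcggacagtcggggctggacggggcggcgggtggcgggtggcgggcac
On either strand TTGGCGC was found in 6 of 49 promoters of the DNA replication and mitosis lists (12.2%) and in 555 of all 27025 (2.05%). The other 11 of the 60 genes had no promoter entry.

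Transcripts of white blood cells were present in marrow P2, although the sort removed CD45-positive cells, and were lower in muscle P2. Among the 12 largest log2 fold changes in favour of marrow, 7 belonged to the neutrophil list (S100a8, S100a9, Mpo, Elane, Ngp, Retnlg and Ltf), and the others were Nkg7, Aspm, Gm10033, Sh3tc2 and Hp. All 19 neutrophil genes were called lower (median log2 fold change -9.48, and -9.78 without the 8 listed at 0 in muscle), of which 13 passed the filter through marrow alone and so had to differ. S100a9, a calcium-binding protein of neutrophils, was at 5.96, 0 and 0 in muscle and 4148, 36718 and 30392 in marrow. S100a8, its partner, was at 17.2, 0 and 2.78 in muscle and 3916, 51399.6 and 35971 in marrow. Elane, neutrophil elastase, was listed at 0 in all muscle libraries and was at 9855, 38912 and 6581 in marrow. The marrow libraries differed among themselves. Ngp and Camp, which encode proteins of secondary granules, were lowest in replicate 1, with Ngp at 443, 38325 and 28151 and Camp at 81.9, 15895 and 15528. Mpo and Ctsg, of the primary granules, were lowest in replicate 3, with Mpo at 18312, 46237 and 3709 and Ctsg at 3134, 7158 and 167. These 4 genes are single examples, and granule classes were not tested. Neutrophil genes summed to 0.246% to 1.07% of the marrow libraries and 0.000181% to 0.00323% of the muscle libraries.

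In the lists of other blood lineages, each gene that was called was lower in muscle except Ebf1, beside a background of 25.5%. All 12 general leukocyte genes were called lower in muscle (9 to 12 over the alternatives), with Lcp1, an actin bundler of blood cells, at 24, 95.4 and 84.7 in muscle and 2228, 2069 and 2925 in marrow (log2 fold change -5.33, s.e. 0.59, adjusted p = 0.000294). Spi1, which encodes the myeloid factor PU.1, was at 0, 0 and 1.60 in muscle and 259.9, 533 and 345 in marrow. Of 12 megakaryocyte genes tested 9 were lower, among them Ppbp at 5.75, 0.984 and 0 in muscle and 5066, 7607 and 398 in marrow, where replicate 3 was lowest. The macrophage and monocyte list had 5 of 13 lower, or 3 without marrow replicate 1. Lyz2, lysozyme, was at 53, 141 and 590.4 in muscle and 2829, 15908 and 8916 in marrow (log2 fold change -5.48, s.e. 0.90, adjusted p = 0.00161), and Ly6c2 was at 9.69, 33.4 and 21.4 in muscle and 4347, 14253 and 5480.4 in marrow (log2 fold change -8.43, s.e. 0.63, adjusted p = 6.09e-05). Csf1r, Cd68 and the C1q genes overlapped between the tissues and did not pass. In the B lineage 5 of 10 genes were lower, 3 without marrow replicate 3. Ebf1, which stromal cells also express, was higher in muscle at 1578, 1592 and 1255 in muscle and 65.3, 211 and 249.7 in marrow (log2 fold change 3.27, s.e. 0.55, adjusted p = 0.00181). Of 6 basophil, mast cell and eosinophil genes tested 4 were called lower, but all 4 had passed the filter through marrow alone and so had to differ. Neither of the other 2 was called. Of 6 T and NK cell genes 3 were lower, or 1 without marrow replicate 1. Passage through marrow alone also accounted for 3 of the 9 calls in the megakaryocyte list and 2 of the 5 in the B lineage. The same was true of 1 of the 5 macrophage and monocyte calls, 1 of the 3 T and NK calls and 2 of the 12 general leukocyte calls.

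**Figure D3:**
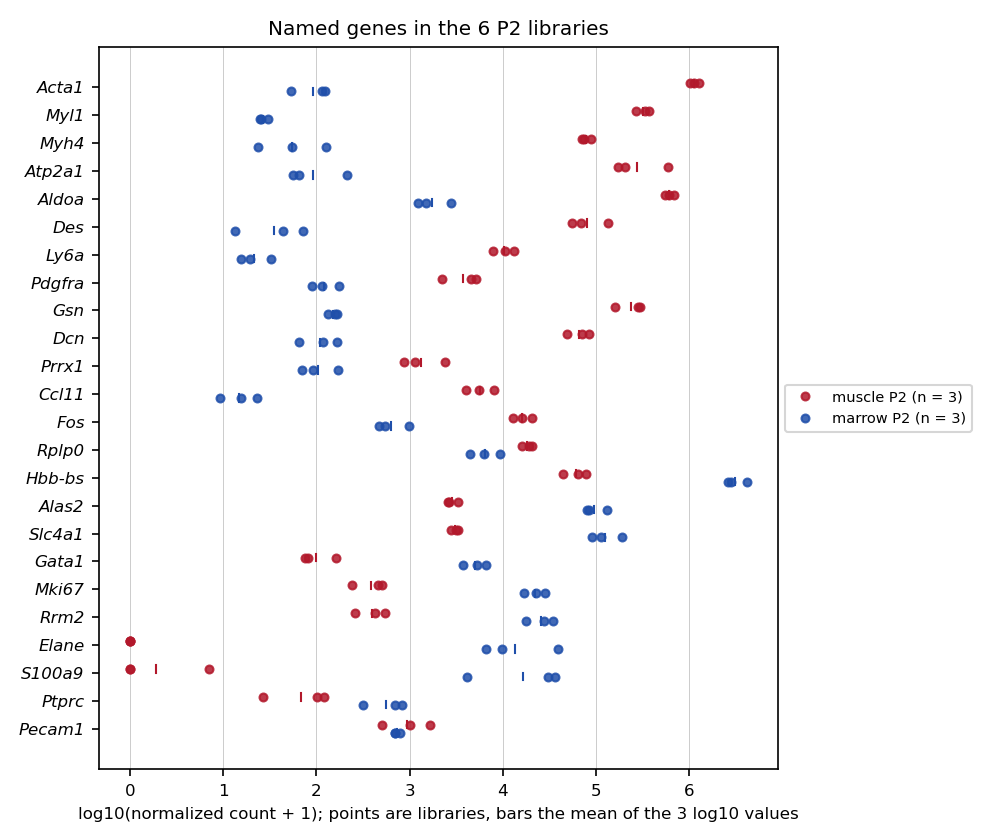
Level of 24 genes in the 3 muscle P2 (red) and 3 marrow P2 (blue) libraries, as log10(normalized count + 1), with bars at the mean of the 3 log10 values. Sarcomere and fibroblast genes lie to the right in muscle, globin, heme and cell cycle genes in marrow, and Pecam1 overlaps between the tissues.

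Connective tissue genes, the class that the Prx1 label is meant to mark, were higher in muscle P2. All 18 general fibroblast genes passed the test (median log2 fold change 5.84), also under each alternative. Dcn, decorin, was at 83536, 49503 and 71296 in muscle and 164, 117 and 63.8 in marrow (log2 fold change 9.27, s.e. 0.40, adjusted p = 1.08e-05). Col3a1, the collagen of soft connective tissue, was at 51614, 32450.4 and 98056 in muscle and 257, 83.3 and 489 in marrow (log2 fold change 7.96, s.e. 0.65, adjusted p = 8.50e-05). Col6a1, which surrounds cells in muscle, was at 10509.6, 9248 and 14181 in muscle and 202, 174 and 148 in marrow (log2 fold change 6.0, s.e. 0.31, adjusted p = 2.21e-05). The smallest log2 fold changes in the list were those of Timp2 and Fstl1 (2.79 and 2.81). Col1a1, the main collagen of bone and tendon, was at 17146, 19187 and 27530.3 in muscle and 3806, 1013 and 2133 in marrow (log2 fold change 3.37, s.e. 0.48, adjusted p = 0.000825). The list held 1.20% to 2.02% of the muscle libraries against 0.0214% to 0.0714% of the marrow libraries.

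Of 16 fibro-adipogenic and adventitial genes, 15 were higher in muscle (median log2 fold change 6.0). Gsn, the actin-severing protein gelsolin, was at 294922, 160928 and 282619 in muscle and 159, 165 and 131 in marrow (log2 fold change 10.61, s.e. 0.32, adjusted p = 1.37e-06). Smoc2 was at 13813, 8781 and 12115 in muscle and 45.1, 0 and 0 in marrow, and Igfbp6, which binds IGF2, at 7851, 6954 and 7889 and 8.84, 0 and 15.7. Apod, a lipid carrier, was at 7107, 2138 and 6371 in muscle and 31.6, 20 and 12.7 in marrow (log2 fold change 7.77, s.e. 0.61, adjusted p = 7.74e-05). Pi16, a marker of adventitial fibroblasts, was at 3462, 2139 and 3949 in muscle and 67.9, 162 and 191 in marrow (log2 fold change 4.58, s.e. 0.49, adjusted p = 0.00027). Col15a1 was the member that was not called, with overlap between the tissues. Among 21 mesenchymal progenitor genes 14 were higher in muscle (10 to 15 over the alternatives) and none lower, and 4 of the 14 had passed the filter through muscle alone. Ly6a, which encodes Sca-1, was at 10683, 7811 and 13364 in muscle and 14.3, 18.3 and 31.5 in marrow (log2 fold change 8.93, s.e. 0.45, adjusted p = 1.82e-05). Pdgfra, the receptor used to sort fibro-adipogenic progenitors, was at 4552, 2226 and 5160.2 in muscle and 115, 87.5 and 173 in marrow (log2 fold change 4.95, s.e. 0.46, adjusted p = 0.00014). Cd34 was at 11097, 7408 and 10117 in muscle and 533, 285 and 717 in marrow (log2 fold change 4.30, s.e. 0.39, adjusted p = 0.000137). The marrow stroma genes Cxcl12 and Lepr did not pass, with Cxcl12 at 1581, 1709.7 and 1824 in muscle and 936, 2368 and 627 in marrow.

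Markers of more specialised skeletal cells were called in both directions. Their counts are to be read beside the 20.3% and 25.5% of all genes called higher and lower. Of 11 osteoblast genes tested 4 were lower in muscle (3 to 7 over the alternatives). Bglap, osteocalcin, was at 10.4, 14.9 and 5.52 in muscle and 743, 247 and 432 in marrow (log2 fold change -5.35, s.e. 0.88, adjusted p = 0.00162). Ibsp, bone sialoprotein, was at 9.40, 12 and 80.8 in muscle and 1188, 759.8 and 211 in marrow (log2 fold change -4.70, s.e. 1.05, adjusted p = 0.00686). Spp1, osteopontin, was at 34.5, 31.5 and 210.4 in muscle and 15403, 221 and 269 in marrow and was not called (adjusted p = 0.0657). Marrow replicate 1 had the highest marrow value in 9 of 14 osteoblast genes. The chondrocyte list had 1 gene higher and 1 lower of 13, and the tendon list had 4 higher and 1 lower of 7, with Thbs4 at 1179.6, 2009.7 and 2298 in muscle and 59.2, 33.2 and 108 in marrow (log2 fold change 4.86, s.e. 0.56, adjusted p = 0.000365). Adipocyte genes were mixed, with 3 of 8 higher and 4 lower, or 2 lower without marrow replicate 1. Car3, a carbonic anhydrase that muscle fibres also express, was at 39540.2, 54997 and 55198 in muscle and 139.5, 83 and 224 in marrow (log2 fold change 8.48, s.e. 0.40, adjusted p = 1.36e-05).

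Among 11 endothelial genes tested, 2 were higher in muscle, a share near the 20.3% of all genes, and none was lower. Tek, the angiopoietin receptor, was at 1349, 1756 and 892 in muscle and 13.9, 24.6 and 154 in marrow (log2 fold change 5.04, s.e. 0.87, adjusted p = 0.00202), and Emcn, endomucin, was at 78.4, 974 and 273 in muscle and 12.9, 12.3 and 15.7 in marrow (log2 fold change 4.25, s.e. 1.08, adjusted p = 0.012). Pecam1, the adhesion protein CD31, was at 498, 1649 and 1005 in muscle and 704, 697 and 793 in marrow, and Kdr, a VEGF receptor, was at 270.3, 591 and 42.5 in muscle and 117, 47.7 and 141 in marrow. In both of these genes the groups overlapped. Muscle replicate 2 had the highest muscle value in 8 of 12 endothelial genes, and it was also the library with the high Cd200 value. Of 8 mural genes tested 2 were higher, Des and Tagln, of which Des is also a member of the Z-disc list. The Schwann cell list had 2 higher and 1 lower of 7. The counts of these lists are to be read beside the 20.3% and 25.5% of all genes called higher and lower. Among 19 limb patterning genes 8 were higher in muscle and none lower (6 to 13 higher over the alternatives). Tbx15, a factor of limb and trunk mesenchyme, was at 3025, 3668 and 2447 in muscle and 89.8, 7.39 and 36.7 in marrow (log2 fold change 6.62, s.e. 0.82, adjusted p = 0.000473), and Hoxc10 was at 1196, 1162 and 1177 in muscle and 0, 16.7 and 0 in marrow.

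**Figure D4:**
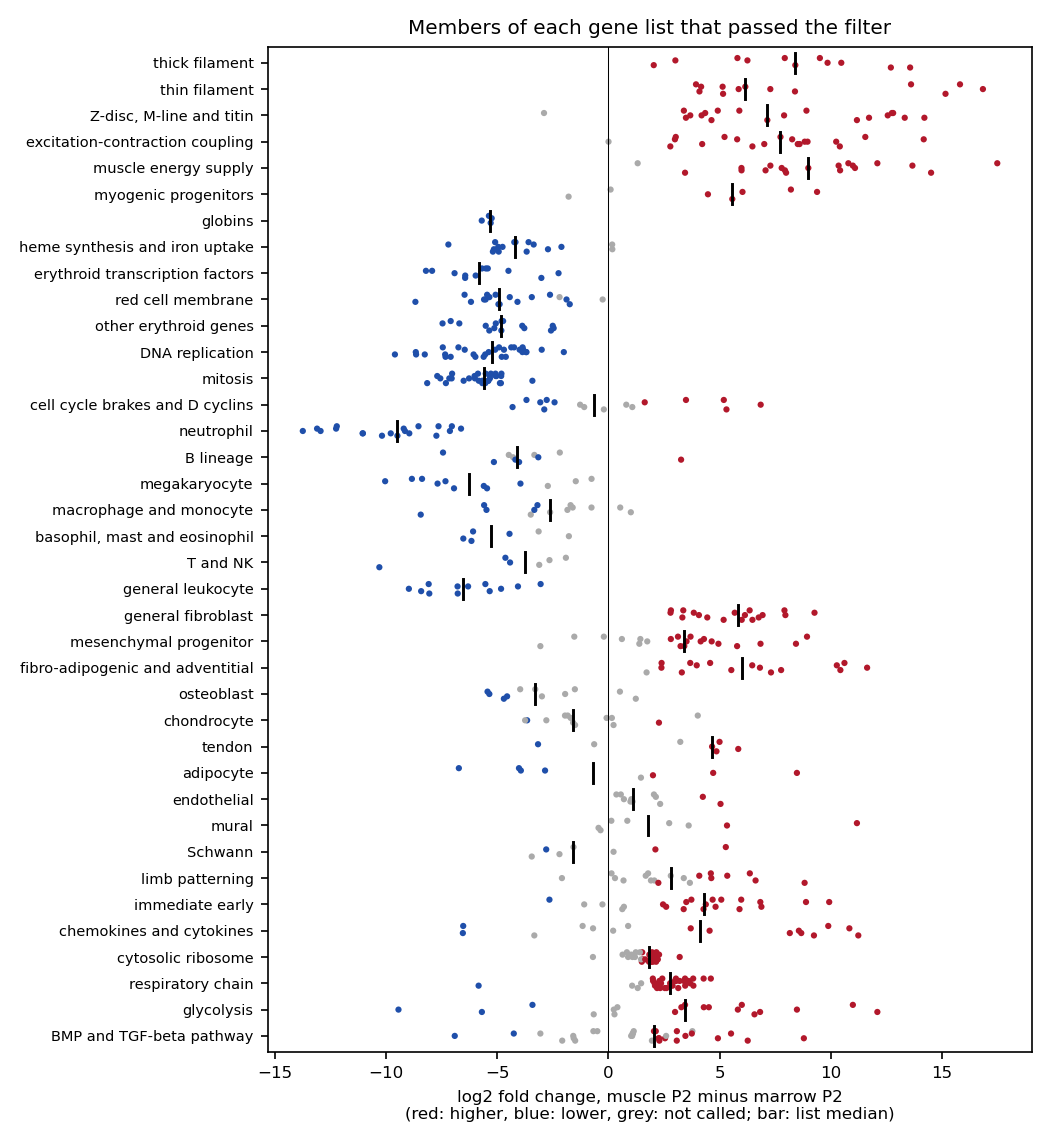
Log2 fold change of muscle P2 against marrow P2 for every list member that passed the filter, in rows by list, with the list median as a bar. Fibroblast, fibro-adipogenic and, but for Myom3, myofibre genes lie at or to the right of 0, DNA replication, mitosis and neutrophil genes lie to the left, and the chondrocyte, adipocyte and Schwann rows lie on both sides.

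Immediate early genes, which cells switch on within minutes of a stimulus, were higher in muscle in 16 of 21 tested cases and lower in 1 (median log2 fold change 4.28). Fos was at 20554, 12801 and 16214 in muscle and 463, 546 and 979.9 in marrow (log2 fold change 4.69, s.e. 0.36, adjusted p = 7.08e-05), and no marrow library came near. Atf3, a stress-induced factor, was at 5692, 6857 and 4364 in muscle and 175, 44.2 and 85.4 in marrow (log2 fold change 5.97, s.e. 0.52, adjusted p = 0.000108), and Cyr61 was at 11394, 10373 and 8166 in muscle and 171, 86.6 and 38.4 in marrow (log2 fold change 6.88, s.e. 0.53, adjusted p = 6.51e-05). Jund was the gene with the opposite direction, at 252, 238 and 119 in muscle and 1470.1, 2166 and 560.5 in marrow (log2 fold change -2.65, s.e. 0.58, adjusted p = 0.00645). Muscle replicate 1 had the highest muscle value in 17 of the 22 genes. Muscle was digested and marrow was not, so an effect of digestion and a difference between the tissues cannot be told apart. Of 16 chemokine and cytokine genes tested, 9 were higher in muscle and 2 lower (median log2 fold change 4.13, or 2.30 without the 4 genes listed at 0 in 1 tissue). Among the 11 that passed the filter through both tissues 5 were higher and 1 lower. Ccl11, eotaxin, was at 7956, 4073 and 5528 in muscle and 14.7, 8.23 and 21.9 in marrow (log2 fold change 8.56, s.e. 0.54, adjusted p = 3.74e-05). Ccl7 was at 2013, 1329 and 2268 and Il6 at 487, 1442 and 313 in muscle, and both were listed at 0 in marrow. Csf1, the macrophage growth factor, was at 1691, 2076 and 1473 in muscle and 165, 58.6 and 235 in marrow (log2 fold change 3.70, s.e. 0.55, adjusted p = 0.00103). The 2 genes lower in muscle were Il1b, at 0, 6.08 and 38.7 against 324, 1210.1 and 556 in marrow, and Ccl3, which was listed at 0 in muscle and at 53, 290.2 and 50.2 in marrow.

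Genes of general metabolism were higher in muscle as well. In glycolysis 12 of 19 genes were higher and 3 lower (median log2 fold change 3.45, or 4.29 without the 2 genes listed at 0 in muscle). Aldoa was at 547347, 694761 and 611149 in muscle and 1502, 2797 and 1221 in marrow (log2 fold change 8.48, s.e. 0.39, adjusted p = 1.25e-05). Gapdh, often used as a reference gene, was at 288919, 333702 and 273911 in muscle and 3997, 7135 and 3535 in marrow (log2 fold change 6.0, s.e. 0.37, adjusted p = 3.64e-05). The muscle enolase Eno3 was at 68524, 85283 and 81571 in muscle and 8.78, 90.3 and 62.4 in marrow (log2 fold change 10.99, s.e. 0.74, adjusted p = 4.21e-05), whereas the general form Eno1 was at 2162, 2917 and 2773 in muscle and 1575, 3868 and 1615 in marrow and was not called. The hexokinase Hk1 was lower in muscle, at 509, 361 and 329 in muscle and 4096, 6087 and 2942 in marrow (log2 fold change -3.41, s.e. 0.37, adjusted p = 0.000286). Hk2, the form of muscle and fat, was higher at 1841, 3268 and 3769.8 in muscle and 176, 354 and 389.8 in marrow (log2 fold change 3.28, s.e. 0.44, adjusted p = 0.000691). Hk3 was listed at 0 in muscle and was at 576, 1207 and 472 in marrow. Glycolysis genes held 6.20% to 7.34% of the muscle libraries and 0.0954% to 0.130% of the marrow libraries.

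Of 34 nuclear genes of the respiratory chain tested, 30 were higher in muscle (29 to 32 over the alternatives) and 1 was lower (median log2 fold change 2.79). Atp5b, a subunit of ATP synthase, was at 47286, 67055 and 52196 in muscle and 10224, 15426 and 6776 in marrow (log2 fold change 2.42, s.e. 0.38, adjusted p = 0.00126). Cox5a, of cytochrome oxidase, was at 14272, 16326 and 15359 in muscle and 786, 1287 and 478 in marrow (log2 fold change 4.28, s.e. 0.38, adjusted p = 0.000121). Of the cytosolic ribosomal protein genes 20 of 30 were higher in muscle and none lower (median log2 fold change 1.83). They have many near copies among pseudogenes, so their levels are uncertain. Rps2 was at 18312, 19197 and 19939 in muscle and 4091, 5306 and 2819 in marrow (log2 fold change 2.28, s.e. 0.31, adjusted p = 0.000715), and Rps20 was at 6956, 7413 and 7677 in muscle and 1042, 1089.9 and 442 in marrow (log2 fold change 3.21, s.e. 0.39, adjusted p = 0.000444). Rpl3 was at 2407, 2775 and 3271 in muscle and 4514, 6960.1 and 2936 in marrow and was not called. The count of ribosomal genes moved with the scaling of the libraries: it was 9 after quantile normalization and 14 when libraries were scaled without the globin and muscle lists. The median of the ribosomal genes lay 1.46 to 2.23 above the median of all genes under the scalings tried. The globins hold a large part of the marrow libraries and the sarcomere genes of the muscle libraries, and their part in these values was not tested beyond that rescaling.

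The BMP and TGF-beta pathway has ligands that bind serine kinase receptors, which act through Smad factors. Of 31 genes tested 14 were higher in muscle and 2 lower (10 to 16 higher over the alternatives). Over all genes the shares were 20.3% and 25.5%. Of the 2 lower genes 1 had passed the filter through marrow alone, and the other, Tgfb1, reached 10 in only 1 muscle library. Among ligands, Tgfb3 was at 1805, 1265 and 2073 in muscle and 9.03, 25.3 and 38.6 in marrow (log2 fold change 6.26, s.e. 0.67, adjusted p = 0.000261), and Tgfb2 was at 1163, 1114 and 378 in muscle and 44.8, 17.3 and 19.9 in marrow (log2 fold change 4.93, s.e. 0.74, adjusted p = 0.00109). Tgfb1 was lower in muscle, at 2.83, 12.4 and 0 against 447, 610.1 and 319 in marrow, and the other gene lower in muscle was Smad9. Mstn, myostatin, which restrains muscle growth, was at 1481, 839 and 1372 in muscle and 0, 0 and 18.8 in marrow. Of the receptors, Tgfbr2 was at 2741, 1189.6 and 2619 in muscle and 105, 113 and 287 in marrow (log2 fold change 3.75, s.e. 0.54, adjusted p = 0.000865), and Tgfbr3 was at 2509, 1960.2 and 1637 in muscle and 192, 146 and 211 in marrow (log2 fold change 3.46, s.e. 0.37, adjusted p = 0.000261). Tgfbr1 was not called. The target gene Id3 was at 5251, 7109 and 4202 in muscle and 285, 104 and 53.5 in marrow (log2 fold change 5.51, s.e. 0.59, adjusted p = 0.000264).

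To ask which differences between the tissues belonged to P2 in particular, the difference in P2 was compared with that in P1 (CD105- CD200+) and in P3 (CD105+) by an interaction term over the 18 libraries of muscle and marrow. The difference was not the same in P2 as in P1 in 7605 of 17389 genes (43.7%), 3064 (17.6%) with a larger and 4541 (26.1%) with a smaller value of muscle minus marrow in P2. Against P3 the numbers were 6802 (39.1%), with 2616 (15.0%) larger and 4186 (24.1%) smaller. Both comparisons share the P2 libraries. Their counts depended on the libraries in the fit, and with all 27 libraries they were 4023 and 3431.

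**Figure D5:**
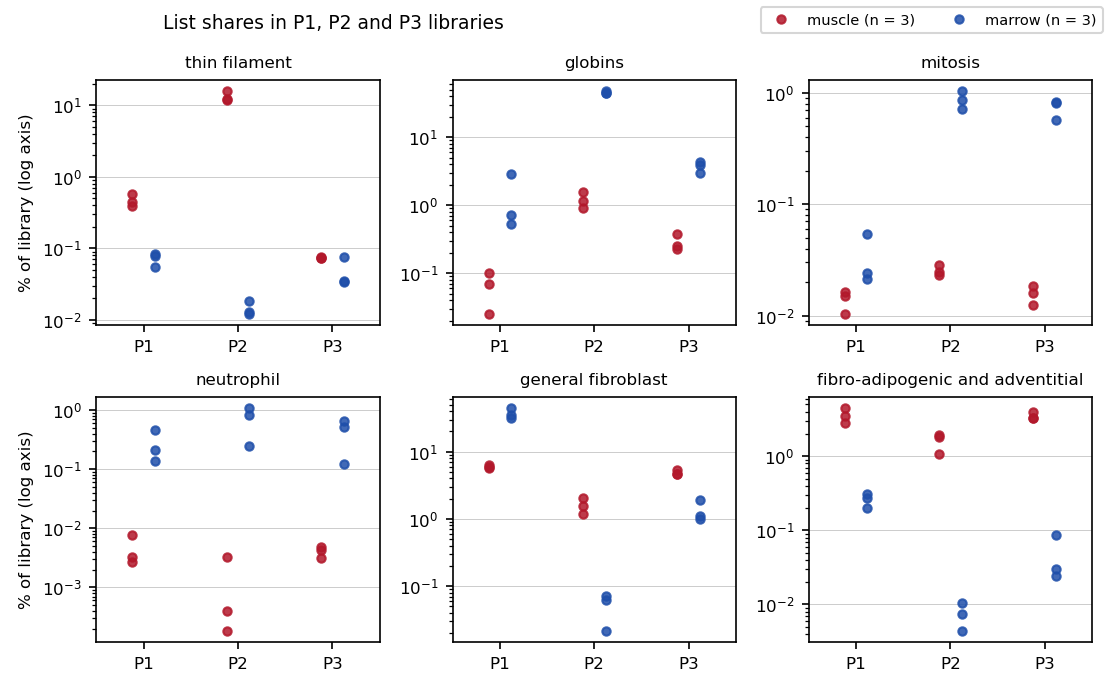
Share of each library held by 6 gene lists in P1, P2 and P3 of muscle (red) and marrow (blue), on logarithmic axes, with 3 libraries per group. Thin filament genes hold 11.9% to 15.8% of muscle P2 and under 1% of every other group, mitosis genes are high in P2 and P3 of marrow, and general fibroblast genes hold more of marrow than of muscle in P1 and less in P2.

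For 14 of 18 general fibroblast genes the value of muscle minus marrow was larger in P2 than in P1, beside 17.6% of all genes, and for 11 it was larger than in P3, beside 15.0%. The 16 fibro-adipogenic and adventitial genes were divided, with 5 larger and 5 smaller in P2 than in P1, beside 17.6% and 26.1% of all genes. Col1a1 was at 98729 ± 23738 in muscle P1 and 2917820 ± 1040482 in marrow P1 (mean ± s.d., n = 3), against 21288 ± 5502 in muscle P2 and 2317 ± 1405 in marrow P2. The interaction was 8.23 (s.e. 0.78, adjusted p = 8.64e-07). Sparc, another bone matrix protein, stood at 62617 ± 8262 and 566055 ± 42695 in P1 and at 19486 ± 3773 and 534 ± 81.4 in P2 (interaction 8.36, s.e. 0.28, adjusted p = 2.76e-12). In both genes the mean of marrow exceeded that of muscle in P1, and the mean of muscle exceeded that of marrow in P2. The whole list held 5.67% to 6.24% of muscle P1 and 31.5% to 44% of marrow P1, and muscle P2 therefore had a smaller share of fibroblast transcripts than muscle P1. Ly6a had the higher mean in muscle in both fractions, with 15844 ± 3308 and 23.1 ± 4.02 in P1, and the interaction of -0.42 did not pass the test. Prrx1 was at 1260.4 ± 55.5 in muscle P1 and 1969 ± 391 in marrow P1, and its interaction was 4.32 (s.e. 0.74, adjusted p = 0.000234).

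For proliferation genes more interactions were called against P1 than against P3. The signed value of muscle minus marrow was smaller in P2 than in P1 in 27 of 30 DNA replication genes, beside 26.1% of all genes. The same held for 25 of 30 mitosis genes. These genes were lower in muscle P2, so a smaller value does not by itself mean a narrower gap between the tissues. Against P3 the value was smaller in 7 and larger in 1 of the 30 DNA replication genes, a share near the 24.1% of all genes. No mitosis gene was called against P3. Rrm2 was at 473 ± 444 in marrow P1, 26949 ± 8647 in marrow P2 and 13725 ± 3526 in marrow P3, and in muscle at 99.9 ± 54.2, 407 ± 143 and 182 ± 69.1. Its interaction was -4.03 (s.e. 0.79, adjusted p = 0.000662) with P1, while with P3 it was 0.20 and not called.

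In each myofibre list the difference was larger in P2 than in P3 for most members. The value of muscle minus marrow was larger in P2 than in P3 in 9 of 13 thin filament, 9 of 11 thick filament and 17 of 19 muscle energy genes, and larger than in P1 in 5, 5 and 13. Acta1 was at 20945 ± 6088 in muscle P1, 1144027 ± 123572 in P2 and 1125 ± 528 in P3, with interactions of 1.49 against P1, which was not called, and 6.37 (s.e. 0.69, adjusted p = 4.06e-06) against P3. Among Z-disc genes 3 of 19 had a smaller value in P2 than in P1, against 7 with a larger value. Over all genes these shares were 26.1% and 17.6%. Against P3 the interaction was called as larger in P2 in 33 of 34 respiratory chain and 29 of 30 ribosomal genes, beside a background of 15.0%. Against P1 it was called as larger in 29 of 34 respiratory chain genes and in 9 of 30 ribosomal genes, beside a background of 17.6%, and the other 21 ribosomal genes were not called. In muscle the ribosomal list held 1.002% to 1.107% of P2 and 0.92% to 0.932% of P3. In marrow it held 0.242% to 0.358% of P2 and 1.53% to 2.53% of P3, so the larger change was in marrow. The respiratory chain list held 1.83% to 2.23% of muscle P2 and 0.475% to 0.59% of muscle P3. In marrow the shares were 0.233% to 0.325% and 0.873% to 1.27%. The part of the globins in these shares was not tested, nor were these interaction counts under other scalings.

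The globin list held its largest share in P2 in both tissues. Hbb-bs was at 2161 ± 1182 in muscle P1, 62655 ± 17725 in P2 and 8644 ± 2697 in P3, and in marrow at 79578 ± 67291, 3210020.3 ± 830171 and 102754 ± 24193. Its interactions were -0.60 against P1, not called, and -2.10 (s.e. 0.69, adjusted p = 0.0226) against P3. None of the 5 globin genes tested was called against P1, and in 2 the value of muscle minus marrow was smaller than in P3. Of 17 heme synthesis and iron uptake genes, 14 had a smaller value of muscle minus marrow in P2 than in P1. A smaller value than in P3 was found for 2 of them. Over all genes 26.1% were smaller than in P1 and 24.1% smaller than in P3.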

How the data were processed

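RNA-seq was made from sorted cells of 27 samples, of which the 6 P2 libraries of muscle and marrow were compared and the 12 P1 and P3 libraries of the same tissues entered the interaction. The deposited signal values are normalized counts, which the authors made by STAR alignment of reads trimmed in Trim Galore and scaling in DESeq2. The genome build, annotation and counting tool are not given in the sources used here. The values were not whole reads, so no count model was run, and the read depth per library is unknown. The commonest low value above 0 was 0.719 to 1.014 in the muscle P2 libraries and 2.827 to 3.249 in the marrow P2 libraries. What a read was worth may therefore differ between the tissues, which was not tested. The filter of 10 and a value of 0 may then not mean the same in both. Of 30154 entries, 29732 had an identifier in the name table. Values were tested as log2(value + 1) in limma 3.58.1 (R 4.3.3, eBayes with trend) with Benjamini-Hochberg adjustment over all genes that reached 10 in 3 libraries, called at an adjusted p under 0.05 and a log2 fold change beyond 1.5. The procedure was tested on simulated data with normal noise in which few genes differed. Far more genes differed here, so that test does not vouch for the calls above. Sums, exact tests and figures were computed in Python (version 3.11.15) with pandas 2.3.3 and numpy 2.4.6, matplotlib 3.10.9 and scipy 1.17.1. The members and the 38 gene lists were chosen with earlier results of these data known. Named genes were those of the sort, the 5 most abundant members of each list, all members of lists of up to 12 genes, and the 12 largest changes each way without overlap. Any other gene named was chosen after its values were seen, namely Tnni1, Tnnt1, Pdlim3, Xirp2, Myom3, Chrna1, Pygm, Alas1, Tfrc, Steap3, Ank1, Rhd, Epor, Ccne1, Cdkn2c, Ccnd1, Ccnd2, Gas1, Camp, Ctsg, Csf1r, Col6a1, Dcn, Timp2, Lepr, Smoc2, Apod, Col15a1, Igfbp6, Hoxc10, Jund, Atf3, Cyr61, Ccl7, Il6, Ccl3, Il1b, Rpl3, Rps20, Cox5a, Hk1, Hk2, Hk3, Eno1, Smad9, Tgfb1, Tgfb2, Tgfb3 and Mstn. Alternatives covered the pseudocount, filter, scaling, libraries in the fit, replicate block, thresholds and leaving out each library. The study describes as many mice as libraries in each group but not which animal gave which library, so p-values measure the spread between these samples, part of which may be technical.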

Additional observations from a re-analysis of the deposited data

Results flagged for a closer look

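The difference between muscle and marrow was not the same in P2 as in P1 for 7605 of 17389 genes, by a limma interaction term over 18 libraries at an adjusted p under 0.05 and a difference beyond 1.5 on the log2 scale. In 3064 genes the value of muscle minus marrow was larger in P2 and in 4541 it was smaller. Against P3 the same test gave 6802 genes, 2616 larger and 4186 smaller. These results are listed because the difference between the tissues itself changed with the sorted fraction. The genes behind them are described with the comparison of P2 with P1 and P3.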

How the results depend on the processing

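The number of genes higher in muscle P2 stayed within 1.5 times of 3173 under each alternative tried, and the number lower (3994) did so except at an adjusted p under 0.01, where it was 2502. With 1 library left out, 2687 to 2963 genes were higher and 2820 to 3951 lower. The share of called genes that were higher was 44.3%, rose to 53.8% among genes with a mean of at least 50 (3167 higher, 2716 lower), where fewer low genes are tested, and was 37.1% when libraries were rescaled without the globin and muscle lists (2604 higher, 4415 lower). Rescaling moved the overall median of log2 fold changes from -0.39 to -0.25 with equal totals, -0.72 without those lists and -0.18 with quantile normalization. The genes that differed from P1 numbered 4023 with all 27 libraries in the fit and 6788 to 7990 with 1 library left out. Those that differed from P3 numbered 3431 with all 27 libraries, 4369 at a mean of at least 50, where fewer genes were tested, and 5843 to 7389 with 1 library left out. The cause of the lower counts with 27 libraries was not tested. The replicate block gave 3165 higher and 4055 lower genes, 7537 genes against P1 and 6791 against P3. The deviations of same-numbered muscle and marrow libraries from their group means had r of 0.0041, 0.0461 and 0.0387. For differently numbered libraries r was -0.0432 to 0.0060. Such values between different tissues cannot show whether same-numbered libraries came from the same animal. Of 465 called genes of the lists and the naming rule, 387 kept their call in every alternative fit, and none changed sign. Of 133 genes that were not called, 40 changed sign in at least 1 alternative fit. The number of reads behind the normalized counts is unknown, which limits what a value of 0 can show.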

Other observations

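The genes and groups that follow were chosen after their values were seen and are given as values. Of 63 tested histone genes, taken by the start of their symbols, 53 were lower in muscle P2 and none higher (median log2 fold change -6.45, 51 to 55 lower under other scalings), and 24 of the 63 passed the filter through marrow alone. The number lower was 49 to 54 when 1 library was left out. Hist1h2ap, which encodes a core histone of replicating cells, was at 1761, 1316 and 1041 in muscle and 92238, 128734 and 59314 in marrow (log2 fold change -6.05, s.e. 0.37, adjusted p = 3.52e-05). Among 70 heat shock and DnaJ genes, chaperones that handle unfolded proteins, 31 were higher and 8 lower (median 0.96). Hspb1, a small heat shock protein abundant in muscle, was at 11654, 16511 and 5099 in muscle and 2.93, 5.49 and 34.4 in marrow (log2 fold change 10.01, s.e. 0.85, adjusted p = 0.000102). The near copies Hspa1a and Hspa1b, whose separate values are uncertain, were at 32285, 25089 and 20986 in muscle and 427, 5.61 and 22.5 in marrow and at 55381, 50941 and 42269 in muscle and 511, 50.4 and 12.8 in marrow. Of the 13 mitochondrially encoded genes tested 1 was higher and 1 lower, with a median of -0.14. Of 50 proteasome genes 13 were higher (6 to 15 over leaving out libraries and rescaling) and 5 lower, shares to be read beside the 20.3% and 25.5% of all genes called higher and lower.

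Several single genes outside the lists were among the more abundant ones. Slc25a4, which exchanges ADP and ATP across the mitochondrial membrane, was at 99565, 128891 and 107440.5 in muscle and 233, 194 and 24.6 in marrow (log2 fold change 10.05, s.e. 0.75, adjusted p = 6.19e-05). Ccng1 was at 26281, 29839.7 and 30496 in muscle and 259, 149 and 247 in marrow (log2 fold change 7.08, s.e. 0.31, adjusted p = 1.12e-05), and C3, the central complement component, was at 14426, 15236 and 17160.3 in muscle and 142, 1759 and 749 in marrow (log2 fold change 4.76, s.e. 0.78, adjusted p = 0.00154). In the other direction Actb, the cytoplasmic actin often taken as a reference gene, was at 3917, 4253 and 3298 in muscle and 33134, 61068 and 22258 in marrow (log2 fold change -3.23, s.e. 0.40, adjusted p = 0.00046). Gpx1, a glutathione peroxidase of red cells and other cells, was at 8289.8, 9472 and 8056 in muscle and 160806, 265811 and 144890.3 in marrow (log2 fold change -4.42, s.e. 0.36, adjusted p = 8.18e-05). Cd24a was at 9267, 9478 and 11045 in muscle and 74031, 99176 and 52694 in marrow (log2 fold change -2.88, s.e. 0.34, adjusted p = 0.000403).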
